A study of Drosophila melanogaster with 16 samples.

Results

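The crop and the proventriculus (PV) are neighbouring parts of the adult Drosophila foregut, and their RNA was compared here gene by gene in flies that carried the same bacterium. Libraries were chosen by the tissue and colonisation in their labels, which gave 3 crop and 5 PV libraries, 8 of the 16 libraries of the series. All flies were Canton-S adult mated females, reared axenically and then given LpWF, a Lactiplantibacillus plantarum, in the culture during adulthood, so that neither group here was free of bacteria. Each library came from pooled tissue dissected in cold PBS, crops with their ducts and PVs with as little crop duct as possible. The labels do not say whether libraries of a group came from separate fly cultures, so p-values measure the spread between these libraries, which may be partly technical. In tissue RNA of this kind, fewer cells of a type and less RNA per cell cannot be told apart.

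The crop is a distensible sac on a narrow duct. Its wall is a flat ectodermal epithelium lined by cuticle and wrapped in visceral muscle, and it stores food and passes it on by contraction. The PV is a folded valve at the entrance of the midgut, where the ectodermal esophagus meets endodermal epithelium. Its cells secrete the peritrophic matrix, a sleeve of chitin and mucins that surrounds the food in the midgut, and the corpus allatum, the corpora cardiaca and the garland nephrocytes lie against it.

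Reads on genes numbered 18186391 to 24760775 in the crop libraries and 23554130 to 45500807 in the PV libraries. Ribosomal RNA took 6.14 to 10.5% of these reads in crops and 15.3 to 38.9% in PVs, with PV replicates 4 and 5 the highest. Levels are given in CPM, counts scaled to a common library size after TMM normalization, and differences as log2 of crop over PV from edgeR, followed after ± by their standard error. A gene was called higher in a tissue when its edgeR adjusted p was under 0.05 and its difference exceeded 2-fold. Of 13619 protein-coding genes, 9218 passed the filter on low counts. The crop was called higher for 1186 of them (12.9%) and the PV for 1283 (13.9%), and the median log2 difference was 0.01. Calls rose to 26.6% and 25.4% without the limit on size. The crop libraries all lay above the PV libraries for 27.5% of the tested genes and all below them for 25.4%. Large differences were more often toward the PV, with 740 called genes past 4-fold and 280 past 16-fold, against 563 and 111 toward the crop. Without PV replicate 4 the calls numbered 1207 and 1270, of which 1149 and 1215 were shared with the full comparison.

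**Figure D1:**
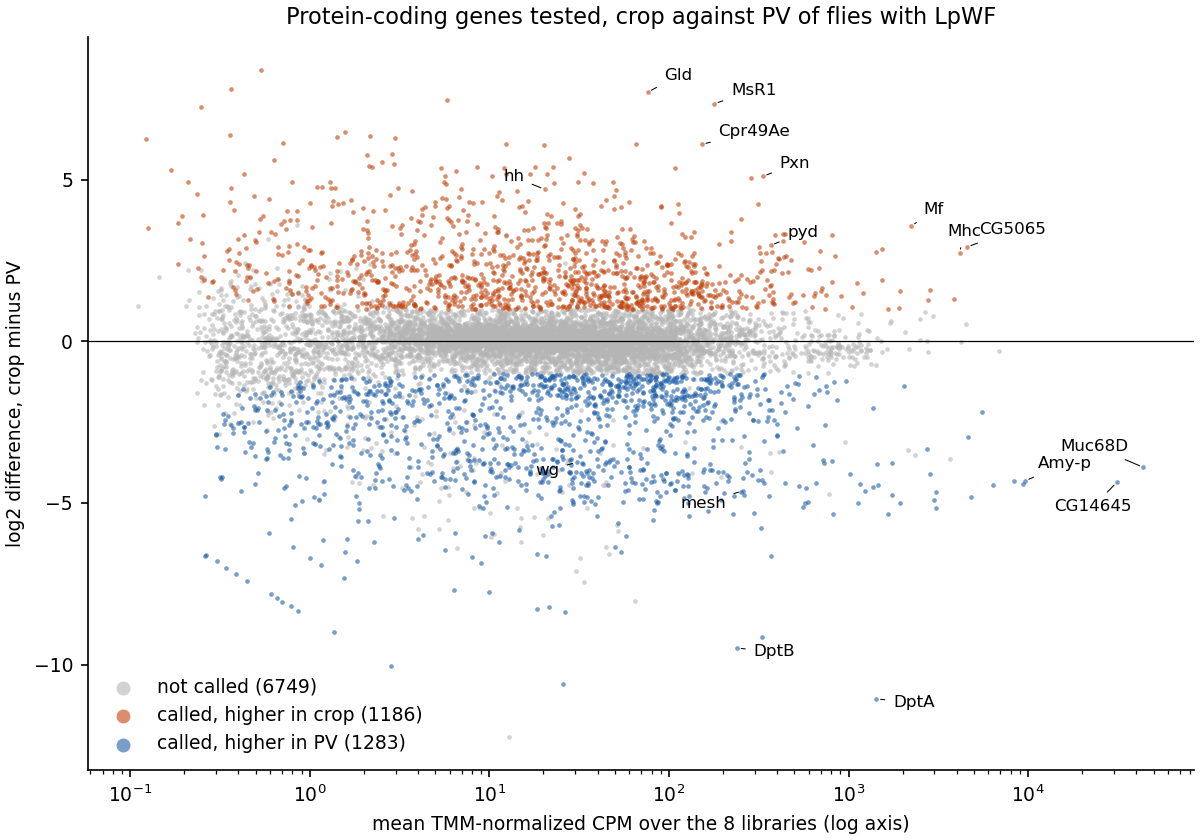
Log2 difference of crop over PV against mean level for the 9218 tested protein-coding genes, one point a gene. The x axis is the mean CPM over the 8 libraries on a log axis, and the y axis is the log2 difference. The 1186 genes called higher in the crop and the 1283 called higher in the PV are coloured, and the other 6749 are grey.

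The choice of scale matters here, and a few PV products took much of the PV RNA. Coding TPM, the deposited TPM scaled so that protein-coding genes alone make up each library, shows this. On it the 10 highest genes held 12.2 to 15.5% of the crop total and 38.2 to 50.9% of the PV total. CG14645, a short gene that division by length raises, made up much of that PV share. The median gene was then 1.997-fold higher in the crop, a log2 shift of 0.998 over 7746 genes above 1 coding TPM in both tissues, against 0.026 on the TMM scale. Differences below are relative to the TMM scale, and a list with a small negative median changes sign on the other.

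Genes were ranked by difference among called genes at 50 CPM or more in the higher tissue whose groups did not overlap, since larger differences occur in genes with few reads. Toward the crop the first was Gld (FBgn0001112, chromosome arm 3R from 7252063 to 7265703), which encodes glucose dehydrogenase. It stood at 218, 214 and 174 CPM in the crop libraries and 0.136, 1.501, 1.82, 0.950 and 0 CPM in the PV libraries. The crop libraries were close to one another and far above every PV library, with a log2 difference of 7.71 (standard error 0.80, edgeR adjusted p = 0.000196). Next came MsR1 (FBgn0035331, chromosome arm 3L from 2322693 to 2345799), a receptor for myosuppressin, a peptide known to slow contractions of the crop. Its level was 441, 435 and 539.8 CPM in the crop libraries and 0.339, 5.89, 4.57, 2.33 and 0.736 CPM in the PV libraries, a difference of 7.36 (standard error 0.86, edgeR adjusted p = 0.000395). The cuticle protein gene Cpr49Ae followed at 326, 392 and 473 CPM in the crop libraries and 2.34, 9.98, 4.41, 6.52 and 5.64 CPM in the PV libraries, a difference of 6.10 (standard error 0.45, edgeR adjusted p = 2.19e-05). In all 3 genes the groups were separated by more than 10-fold.

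Secreted factors and muscle genes were among the other 12. The gene shf, whose product helps Hedgehog spread through tissue, averaged 276 CPM in the crop against 6.67 CPM in PV, 5.36 ± 0.30 on the log2 scale. Vago, a secreted antiviral factor, averaged 53.3 CPM in the crop against 1.46 CPM in PV, 5.17 ± 0.17. Pxn (FBgn0011828, chromosome arm 3L from 2601455 to 2630064), which encodes the matrix enzyme peroxidasin, stood at 882, 834 and 828 CPM in the crop libraries and 21.8, 33.0, 26.3, 23.5 and 18.4 CPM in the PV libraries. The 3 crop libraries hardly varied, and the difference was 5.10 ± 0.18. BaraA2, a baramicin antimicrobial gene with a near-identical copy between which reads can be split, stood at 496, 829.5 and 852 CPM in the crop libraries and 55.4, 27.3, 7.74, 15.4 and 3.25 CPM in the PV libraries. Its groups did not overlap although the PV libraries spread widely, with a difference of 5.05 (standard error 0.90, edgeR adjusted p = 0.00308). The troponin C gene TpnC47D (4.93 ± 0.29) and the transcription factor genes Poxm (4.92 ± 0.13) and bap (4.90 ± 0.48) closed the list of 15. Its other members were Rcd6 and CG30334, CG11951, CG42329 and CG3009, with differences from 5.196 to 6.09.

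At the other end of this ranking stood inducible immune genes. DptA, which encodes a diptericin, came first. It stood at 0.324, 2.69 and 0.320 CPM in the crop libraries and 3534, 4958, 1542, 943 and 459.8 CPM in the PV libraries. The PV libraries thus differed among themselves by more than 10-fold, yet all lay far above the crop, with a difference of -11.06 (standard error 1.65, edgeR adjusted p = 0.00133). DptB averaged 0.543 CPM in the crop against 382 CPM in PV (-9.49 ± 1.42) and the defensin gene Def 5.95 CPM in the crop against 588 CPM in PV (-6.65 ± 1.56). PGRP-SD, a peptidoglycan recognition protein, averaged 0.953 against 85.6 CPM (-6.50 ± 0.98), and the C-type lectin gene lectin-37Da 1.02 against 79.3 CPM (-6.37 ± 1.34). All 3 crop libraries were below all PV libraries for each of these.

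Other large PV differences belonged to genes of the gut lining and to genes without a name. Tsp2A, a membrane protein needed for smooth septate junctions, stood at 1.15, 2.23 and 1.09 CPM in the crop libraries and 66.0, 78.0, 66.8, 64.1 and 39.7 CPM in the PV libraries. The groups were far apart, with a difference of -5.42 (standard error 0.36, edgeR adjusted p = 4.65e-06). The stress gene Fst averaged 1.41 against 91.4 CPM (-6.01 ± 0.66) and the tetraspanin gene Tsp42Eb 2.80 against 129 CPM (-5.52 ± 0.59). CG15043 was far higher in absolute terms, at 30.4, 134 and 32.2 CPM in the crop libraries and 3398, 3459, 3054, 1556 and 1685 CPM in the PV libraries, a difference of -5.33 ± 0.76. The remaining CG genes of the 15, CG7017, CG13324, CG45061, CG10405, CG13323 and CG13806, ran from -5.35 to -9.13.

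**Figure D2:**
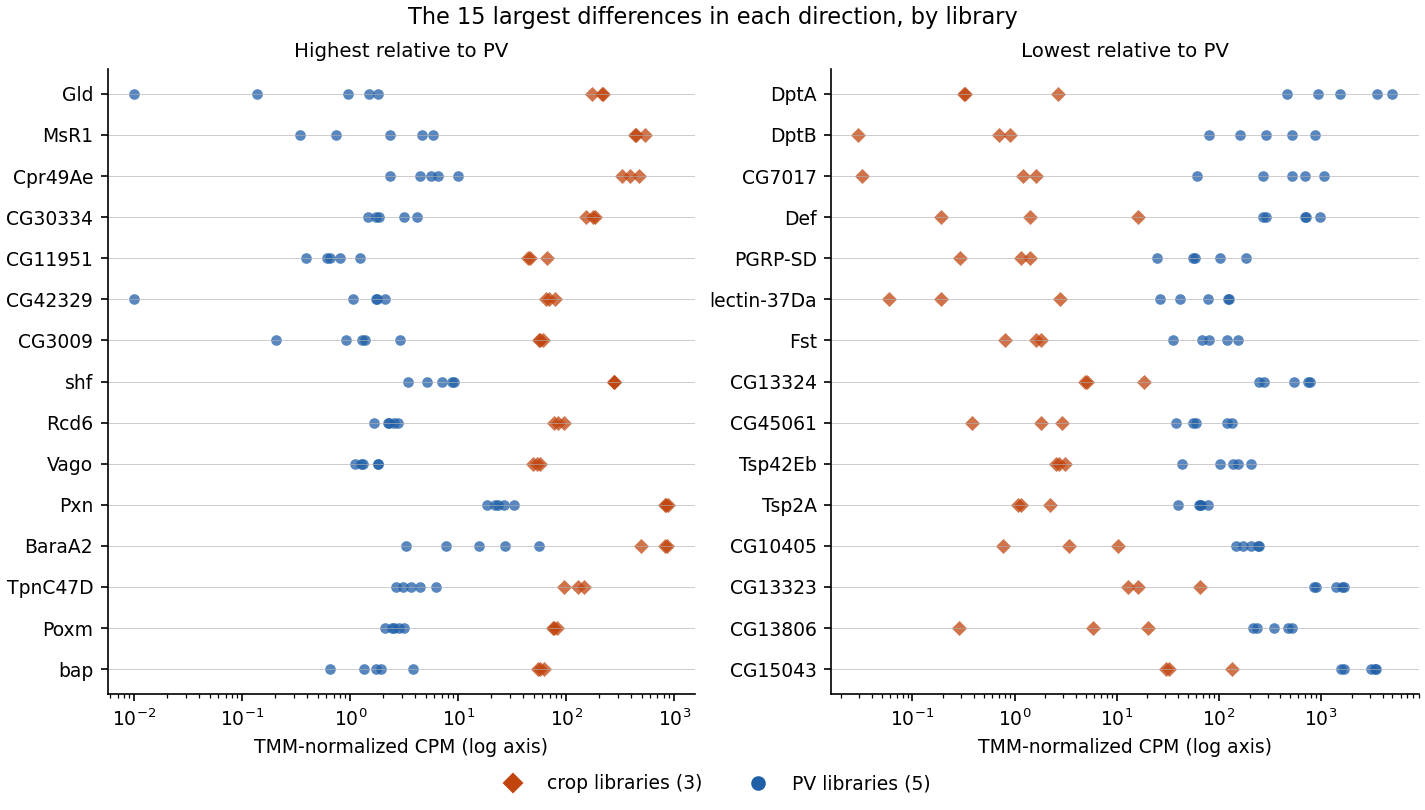
CPM in each library (log axis, values of 0 and below 0.01 drawn at 0.01) for the 15 genes with the largest difference in each direction. Points are libraries, coloured by tissue, and the groups do not overlap in any of the 30 genes because the rule required it.

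Levels between genes were compared in coding TPM, which divides by length. CG14645 (FBgn0040687, chromosome arm 3R from 4335098 to 4335506), a gene without a described role, ranked highest by mean in both tissues. It held 292320.0 ± 52015 coding TPM in PV (SD, n = 5) and 28078 ± 28380.0 in the crop (SD, n = 3), where its CPM was 1292, 5185 and 643 in the 3 libraries. That spread of the crop libraries was as large as their mean. Without crop replicate 2 the crop mean was 11854 coding TPM and the rank was 4, and RpL41 was higher in crop replicates 1 and 3. By CPM the crop lay below every PV library (-4.36 ± 0.77 in log2). The gene is short, and division by length raises it against longer genes. Its CPM in PV was 38770 to 47670, with replicate 5 at 70600, and the mucin gene Muc68D had the higher mean CPM there. How much CG14645 adds to the median shift between the scales was not tested. Among the 12 highest PV genes were also CG3906 at 23427 ± 2954 coding TPM, the mucin gene Muc68D at 14225 ± 2405, the chitin-binding protein gene CG14125 at 12016 ± 1832 and CG4783 at 10845 ± 1185 (SD, n = 5). The rest were the ribosomal protein genes RpL41 and RpL39, Amy-p, Amy-d, DptA, CG43673 and CG5506.

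In the crop the highest levels after CG14645 were those of RpL41 at 27804 ± 3304 and RpL39 at 15307 ± 2357 coding TPM (SD, n = 3). Mf (FBgn0038294, chromosome arm 3R from 15170625 to 15181510), which encodes myofilin of the thick filament, held 12381 ± 161 coding TPM (SD, n = 3), against 530.4 ± 59.8 in PV (SD, n = 5). Its CPM values were 4990.3, 5171 and 5525 CPM in the crop libraries and 421, 448, 474, 384 and 488 CPM in the PV libraries, so that every crop library stood about an order of magnitude above every PV library (3.56 (standard error 0.10, edgeR adjusted p = 3.65e-08)). CG5065, which encodes a fatty acyl-CoA reductase, held 5720.0 ± 546 coding TPM in the crop and 384 ± 54.5 in PV, with a difference in counts of 2.92 (standard error 0.17, edgeR adjusted p = 1.06e-06). EbpIII, of a small family of secreted chemosensory proteins, held 11142 ± 590.3 coding TPM in the crop, but by CPM the groups overlapped (0.05 ± 0.14). The other 6 of the 12 were Adh, eEF1alpha1, RpLP1, Acbp2, mt:CoI and mt:CoIII.

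Totals of coding TPM showed where this RNA went. The lists summed were chosen with earlier results of these data known. The p-values for their totals therefore describe these libraries and are not independent support. Sarcomere genes held 4.46 ± 0.24% of it in the crop (SD, n = 3) and 0.370 ± 0.032% in PV (SD, n = 5), a ratio of 12.0 and well above the 1.997-fold shift of the median gene. Ribosomal protein genes held 27.4 ± 1.87% and 17.7 ± 0.76%, a ratio of 1.55 that is below that shift. Mitochondrially encoded genes held 2.99 ± 1.27% and 1.06 ± 0.32%. Each of these totals was higher in all 3 crop libraries than in any PV library (exact permutation test, two-sided, p = 0.0179, the smallest that 56 splits allow, and 0.0238 after adjustment over the 4 totals tested). On the CPM scale the ribosomal and mitochondrial shares did not pass the exact permutation test (p = 0.125 and 0.0536). The fourth total, digestive enzymes, held 0.680 ± 0.53% in the crop and 5.39 ± 2.55% in PV (exact permutation test, two-sided, p = 0.0357), and did not pass without crop replicate 1 (p = 0.143) or without any of PV replicates 1 to 4 (p = 0.0571). Its libraries did not overlap, at 0.109 to 1.15% in the crop and 2.18 to 9.25% in PV. Its share of CPM passed the exact permutation test (p = 0.0179).

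**Figure D3:**
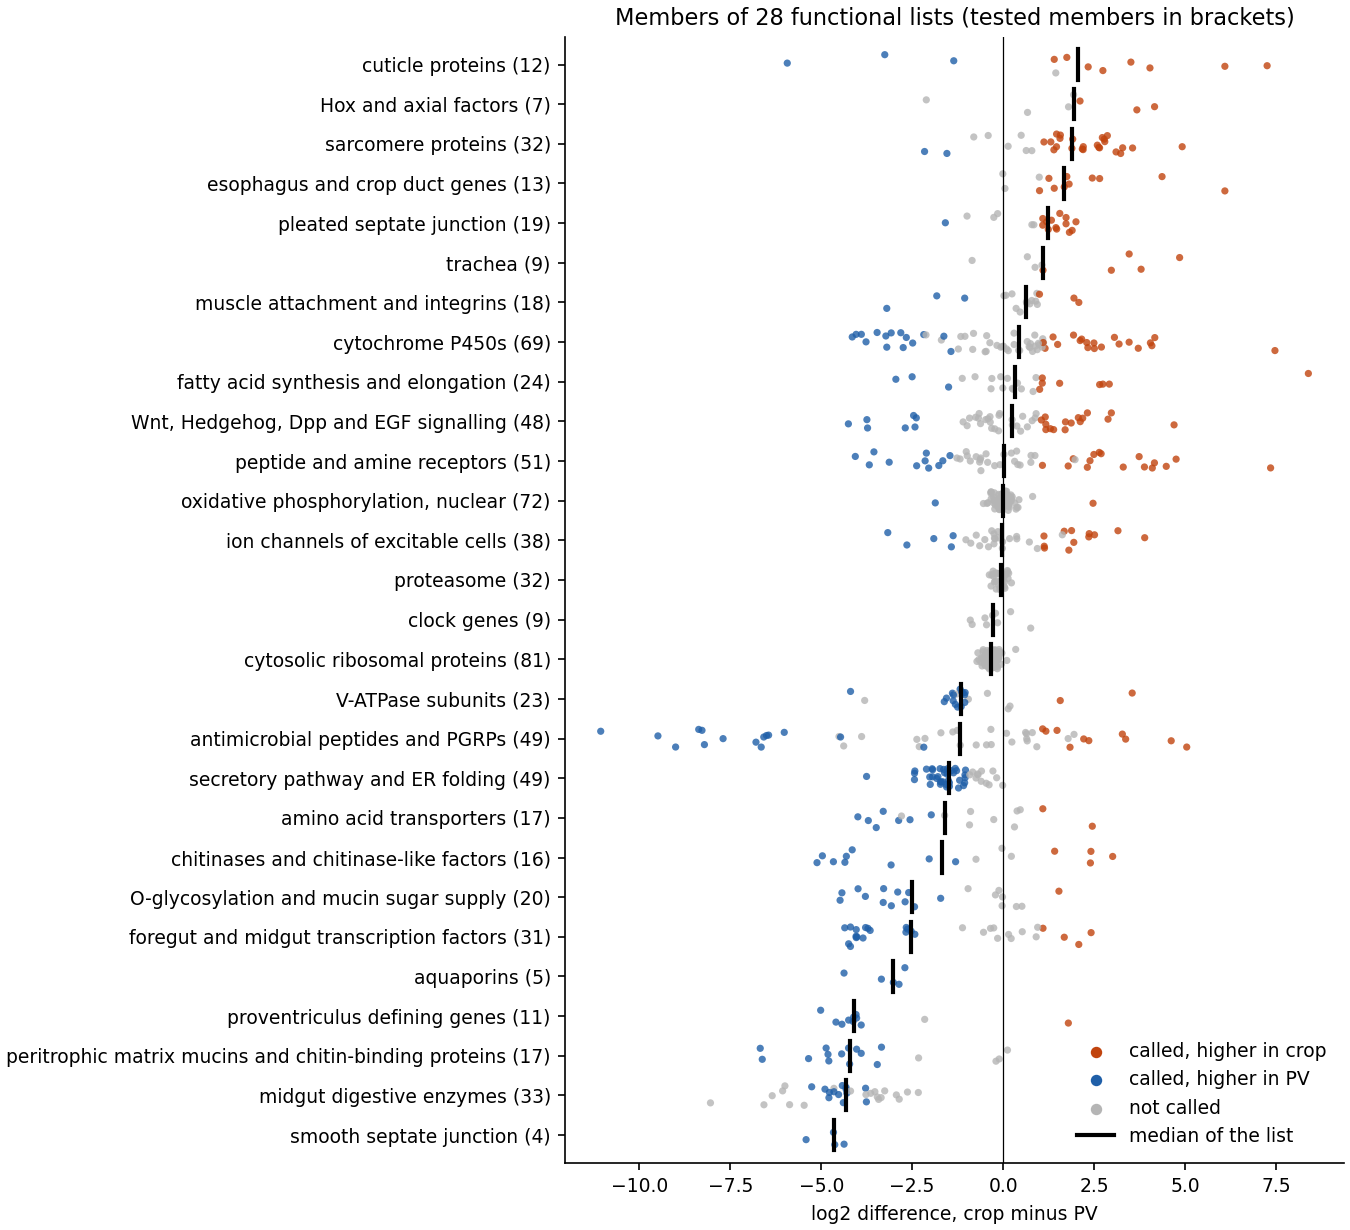
Log2 differences of the tested members of 28 gene lists (x axis, crop over PV), one point a gene, with the list medians as bars. Sarcomere, cuticle and pleated septate junction genes lie mostly to the right of 0, while peritrophic matrix, smooth septate junction and aquaporin genes lie to the left.

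Sarcomere genes were mostly higher in the crop. Of 32 sarcomere genes tested, 24 were called higher in the crop and 2 in PV, with a median of 1.90. Mhc, the myosin heavy chain, stood at 9513, 8316 and 8736 CPM in the crop libraries and 1397, 1340.2, 1279.9, 1131 and 1526 CPM in the PV libraries. The crop libraries agreed closely and did not overlap the PV libraries, with a difference of 2.73 (standard error 0.11, edgeR adjusted p = 1.56e-07). Other thick filament and motor genes followed, with Mlc2 at 2.87 ± 0.11, Prm, which encodes paramyosin, at 1.91 ± 0.10 and the titin relatives sls at 1.58 ± 0.19 and bt at 1.89 ± 0.18. On the thin filament, Act57B was higher by 2.78 ± 0.13, the tropomyosin gene Tm2 by 2.80 ± 0.08 and the troponin I gene wupA by 3.29 ± 0.10. The troponin C genes divided, since TpnC47D and TpnC73F (3.23 ± 0.16) were higher in the crop, and TpnC25D (-1.54 ± 0.15) and TpnC4 (-2.16 ± 0.36) in PV. TpnC25D nevertheless averaged only 35.5 CPM in the crop against 104 CPM in PV. Flight muscle genes were near the detection limit in both tissues, with fln at 0.379 against 0.348 CPM and Act88F at 1.26 against 0.716 CPM.

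Around the sarcomere the differences were smaller. In muscle calcium handling, 3 of 12 genes were called higher in the crop and 2 in PV, against 12.9 and 13.9% of all genes. The crop genes were the calcium channel subunits Ca-alpha1D (1.95 ± 0.12) and Ca-beta (1.94 ± 0.15) and the ryanodine receptor RyR (1.51 ± 0.12). The calcium pump SERCA did not pass the limit on size at 0.60 ± 0.07, and the ER calcium-binding protein Calr was higher in PV at -1.63 ± 0.16. Of 18 attachment genes, 3 were called on each side, against 12.9 and 13.9% of all genes, around a median of 0.64. Paxillin (Pax, 2.08 ± 0.09) led toward the crop. The integrin ligand gene Tsp (-3.20 ± 0.22) and p130CAS (-1.82 ± 0.16) were higher in PV, as was the alpha integrin gene scb (-1.06 ± 0.13), which fell under the 2-fold limit without crop replicate 3 (-0.96) or PV replicate 4 (-0.98).

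Regulators of visceral muscle separated by identity. Averages of bap, whose NK homeobox product specifies visceral mesoderm, were 57.8 against 1.90 CPM, from crop libraries at 56.8, 54.7 and 61.8 and PV libraries at 0.645, 3.84, 1.74, 1.94 and 1.35. The forkhead gene bin (1.90 ± 0.23), the receptor tyrosine kinase gene Alk (1.81 ± 0.23), the RNA-binding protein gene how (1.75 ± 0.13) and zfh1 (1.38 ± 0.20) were also higher in the crop. The ligand of Alk, jeb, was barely detected at 0.588 against 1.21 CPM and its groups overlapped. In the opposite direction, tup (-1.34 ± 0.12), Hand (-3.48 ± 0.31) and org-1 (-4.19 ± 0.89) were higher in PV. Hand also marks nephrocytes.

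Basement membrane genes split by component. The laminin chains LanA (1.83 ± 0.12), LanB1 (1.54 ± 0.10) and LanB2 (1.46 ± 0.08) and the collagen-binding protein SPARC (1.43 ± 0.17) were called higher in the crop, together with Pxn. The collagen IV chains were not called, with Col4a1 at 20.9 against 30.0 CPM and vkg at 19.8 against 33.4 CPM. Ndg, which encodes nidogen, was far higher in PV at 13.5, 26.5 and 7.36 CPM in the crop libraries and 225, 213, 212, 181 and 221 CPM in the PV libraries. All PV libraries exceeded all crop libraries by a wide margin (-3.74 (standard error 0.42, edgeR adjusted p = 0.000207)). The alternative laminin alpha chain wb (-1.79 ± 0.23) and the papilin gene Ppn (-1.62 ± 0.20) were also higher in PV. In all, 7 of 18 were called for the crop and 3 for the PV, against 12.9 and 13.9% of all genes.

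The crop is lined by cuticle, and most cuticle genes that could be tested were higher there. Only 12 of 99 listed genes passed the filter, of which 8 were called higher in the crop and 3 in PV. A member that passed through the tissue where it is high had to differ, so these counts describe the genes and do not test the list. Cpr67B stood at 1154, 1067 and 943 CPM in the crop libraries and 315, 349, 438, 433 and 453 CPM in the PV libraries. Its groups did not overlap, and the difference was 1.41 ± 0.13. Cpr57A (40.8 against 3.58 CPM, 3.52 ± 0.12) and Cpr51A (40.8 against 12.1 CPM, 1.75 ± 0.19) were also higher in the crop, and Cpr66D (2.57 against 6.58 CPM, -1.36 ± 0.27) in PV. Genes for the extracellular matrix of the apical surface went with them. Dumpy (dpy), a giant protein that anchors cuticle, averaged 984 CPM in the crop against 97.8 CPM in PV (3.33 ± 0.25). The transmembrane gene uif (3.80 ± 0.16) and the chitin-binding protein gene Gasp (3.47 ± 0.14) had similar differences, whereas the peptidase gene Ance (18.8 against 326 CPM, -4.12 ± 0.46) was higher in PV.

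Chitin synthesis and deacetylation genes were mostly PV genes. Of 15 tested, 3 were called higher in the crop and 9 in PV, with a median of -1.53. The PM chitin synthase gene Chs2 stood at 7.77, 19.3 and 5.28 CPM in the crop libraries and 195, 172, 181, 220.2 and 167 CPM in the PV libraries. Crop replicate 2 held the most in the crop but was below every PV library, and the difference was -4.12 (standard error 0.46, edgeR adjusted p = 0.000226). The cuticle chitin synthase gene kkv was low in both tissues at 1.39 against 2.58 CPM, with overlapping groups. Enzymes that supply the sugar precursor were higher in PV, from Gfat1 (-2.69 ± 0.18) and Gnpnat (-3.28 ± 0.29) to nst (-1.65 ± 0.11) and mmy (-2.17 ± 0.15). The deacetylases divided. Cda9 was higher in PV (48.4 against 1018 CPM, -4.40 ± 1.40), although its edgeR adjusted p ran from 0.0568 to 0.112 when crop replicate 1 or any PV replicate was left out. In contrast, verm was higher in the crop (14.4 against 0.494 CPM, 4.85 ± 0.19). Hexo1 (-2.58 ± 0.21) and Hexo2 (3.65 ± 0.19), both hexosaminidases, went opposite ways.

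Chitinases were mostly PV genes and their catalytically inactive relatives were mixed, with 9 of 16 called for the PV and 4 for the crop. Cht8 stood at 129.97, 429 and 6.56 CPM in the crop libraries and 4607, 4239, 5643, 4115 and 5308 CPM in the PV libraries. Crop replicate 3 was the lowest library, and the difference was -4.66 (standard error 1.25, edgeR adjusted p = 0.0185), with an edgeR adjusted p of 0.0648 without crop replicate 1. Cht9 (-4.97 ± 1.11), Cht4 (-5.12 ± 1.23) and Cht2 (-4.35 ± 0.56) shared that direction. Of the imaginal disc growth factors, which bind chitin without cutting it, Idgf1 (3.01 ± 0.18), Idgf2 (2.42 ± 0.15) and Idgf6 (1.42 ± 0.09) were higher in the crop. Idgf4 was higher in PV (274 against 677 CPM, -1.30 ± 0.19), and the groups overlapped for Idgf3 and Idgf5.

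Peritrophic matrix genes were mostly higher in PV. None of 17 tested mucins and chitin-binding proteins was called higher in the crop (0 in edgeR also at an unadjusted p under 0.05, and 0 in DESeq2), and 13 were called higher in PV, with a median of -4.22. Muc68D (FBgn0036203, chromosome arm 3L from 11767299 to 11772157) stood at 3801, 8428 and 1341 CPM in the crop libraries and 65320.0, 47415, 60579, 73050.0 and 91381 CPM in the PV libraries. Even the highest crop library lay far below the lowest PV library, and the difference was -3.90 (standard error 0.61, edgeR adjusted p = 0.000956). CG14125 (268 against 7533 CPM, -4.81 ± 0.81) and Muc68E (21.5 against 399 CPM, -4.22 ± 0.70) lay beside it. Mur2B (11.5 against 10.6 CPM, 0.12 ± 0.32) and CG3348 (51.4 against 55.4 CPM, -0.11 ± 0.30) had overlapping groups.

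Enzymes that add sugars to mucins moved the same way. GalNAc transferases start O-linked chains, and Pgant4, which is known to act in secretory granules of the PV, stood at 93.6, 197 and 24.9 CPM in the crop libraries and 2094, 2418, 2449, 1830.0 and 2530.1 CPM in the PV libraries. Its difference was -4.43 (standard error 0.69, edgeR adjusted p = 0.00138). Pgant5 (-2.43 ± 0.25), Pgant6 (-2.90 ± 0.20) and Pgant2 (-2.60 ± 0.36) were also higher in PV, while Pgant9 and Pgant7 overlapped between the tissues. C1GalTA, which adds the next sugar, differed by -3.30 ± 0.16, and sgl, the UDP-glucose dehydrogenase, by -3.07 ± 0.30. The call toward the crop was CG34056 (15.3 against 5.28 CPM, 1.54 ± 0.18). Thus 12 of 20 were PV-called.

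The general secretory machinery was higher in PV by a smaller and more even amount. Of 49 genes, 37 were called higher in PV and 0 in the crop (0 in edgeR also at an unadjusted p under 0.05, and 0 in DESeq2), and the median was -1.48. The ER chaperone Hsc70-3 averaged 333 CPM in the crop against 1179.6 CPM in PV (-1.82 ± 0.20), the translocon subunit Sec61alpha differed by -1.56 ± 0.09 and the coat subunit betaCOP by -1.94 ± 0.18. CrebA, a transcription factor for secretory genes, was higher in PV by a larger amount (-2.43 ± 0.20). The unfolded protein response gene Xbp1 had overlapping groups at 819 against 926 CPM. On the coding TPM scale the median of these genes was -0.51, against a median gene at 0.998.

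PV genes were present in the crop libraries at levels that differed between those libraries. For the 9 PV-called genes of a list that defines the PV, the median level was 4.53, 10.3 and 1.60% of the PV mean in crop replicates 1, 2 and 3. Their order was the same for the 4 PV-called smooth septate junction genes (2.35, 6.83 and 2.23%), with crop replicate 2 highest. It was also the same for the 9 PV-called chitinases and relatives (4.68, 9.63 and 0.242%). The 37 PV-called secretory genes stood at 31.9, 33.3 and 33.1%, and the 15 PV-called V-ATPase subunits at 40.8, 43.1 and 42.7%. Neither set had such a difference between libraries. The 15 PV-called antimicrobial and PGRP genes stood at 0.0997, 0.489 and 0.234%, while 10 of the 49 tested in that list were called higher in the crop. All these percents cover only genes chosen for being lower in the crop. The part of PV tissue in the crop samples was not tested. Without crop replicate 2 the calls numbered 1171 for the crop and 1259 for the PV, of which 1121 and 1165 were shared with the full comparison.

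**Figure D4:**
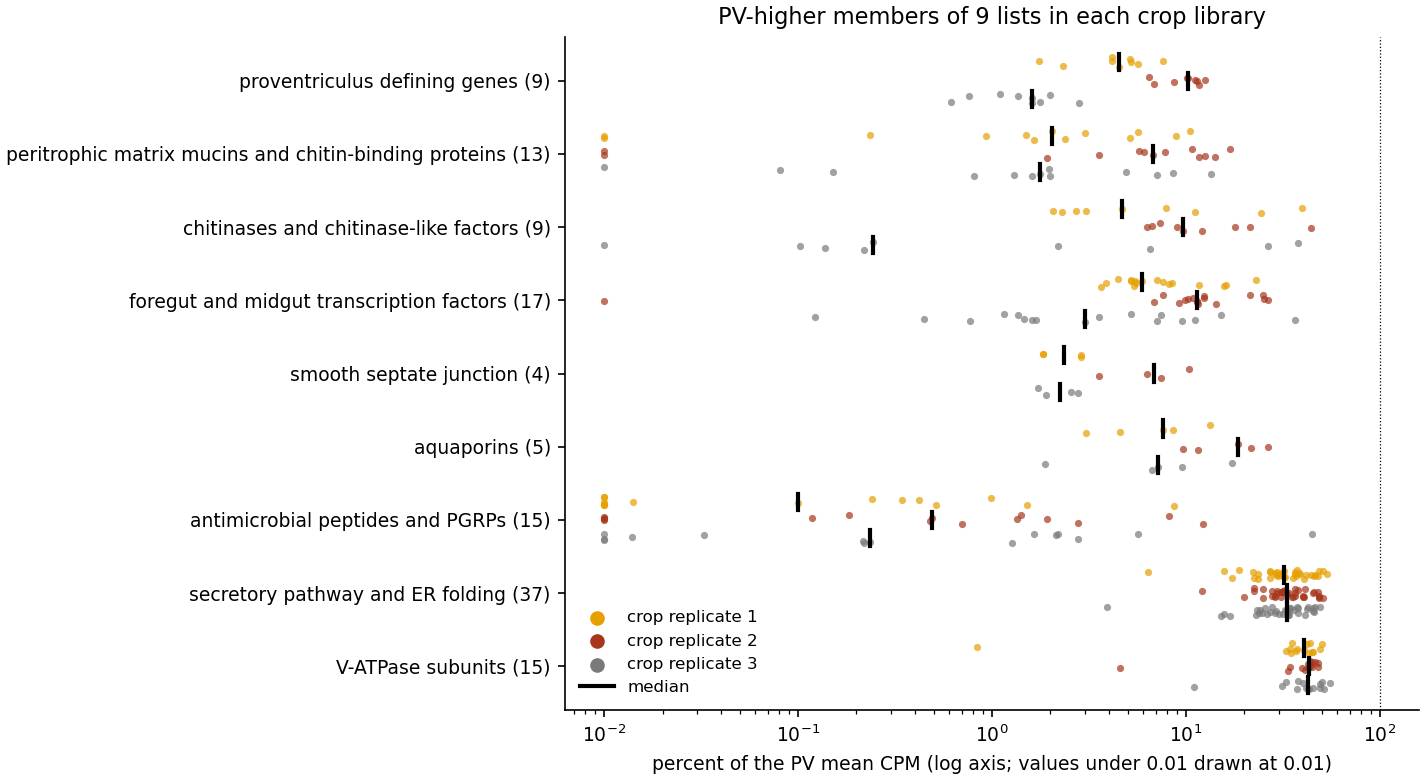
Level of PV-called genes in each crop library as a percent of the PV mean CPM (x axis, log scale, values below 0.01 drawn at 0.01) for 9 lists, with the number of genes in parentheses. Points are genes, colours are the 3 crop libraries and bars are medians, and replicate 2 lies furthest right in the PV-defining list at 10.3%.

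Cell junctions showed the tissue types most directly. Smooth septate junctions seal endodermal epithelia and pleated septate junctions seal ectodermal ones. All 4 tested smooth junction genes were called higher in PV. The junction protein gene mesh stood at 11.5, 29.7 and 7.61 CPM in the crop libraries and 389, 494, 410.3, 428 and 287 CPM in the PV libraries. The groups were far apart (-4.63 (standard error 0.53, edgeR adjusted p = 0.000264)), and Ssk (-4.66 ± 0.39), hoka (-4.37 ± 0.63) and Tsp2A had differences of like size. Of 19 pleated junction genes, 13 were called higher in the crop, with a median of 1.24. Contactin (Cont) averaged 234 CPM in the crop against 62.7 CPM in PV (1.90 ± 0.10), and the sodium pump beta subunit nrv2 (2.00 ± 0.11), vari (1.82 ± 0.09), Mcr (1.73 ± 0.10) and the claudin kune (1.45 ± 0.09) were similar. The exception was Gli (31.7 against 95.2 CPM, -1.59 ± 0.12), a component of tricellular junctions, which was higher in PV.

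Adherens and polarity genes differed less, and gap junction genes more. The scaffold gene pyd averaged 809.6 CPM in the crop against 103 CPM in PV (2.97 ± 0.10), and ed (1.84 ± 0.12), dlg1 (1.36 ± 0.08) and baz (1.25 ± 0.07) were also called higher in the crop, 4 of 16 in all. E-cadherin (shg) did not pass the limit at -0.52 ± 0.09. Among innexins, which form gap junctions, shakB was higher in the crop (20.4 against 4.71 CPM, 2.12 ± 0.27). Inx7 (1.95 against 52.5 CPM, -4.77 ± 0.49), Inx2 (122 against 379 CPM, -1.63 ± 0.12) and ogre (58.0 against 139 CPM, -1.26 ± 0.09) were higher in PV.

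Transcription factors of gut patterning were mostly PV genes. Of 31 tested, 17 were called higher in PV and 4 in the crop, against 13.9 and 12.9% of all genes. The homeobox gene dve stood at 22.0, 47.9 and 6.72 CPM in the crop libraries and 389.9, 383, 387, 451 and 490.0 CPM in the PV libraries. Its groups did not overlap and the difference was -4.04 (standard error 0.64, edgeR adjusted p = 0.00152). The Iroquois genes ara (-4.20 ± 0.75), caup (-4.04 ± 0.66) and mirr (-3.71 ± 0.32) lay near it. So did the odd-skipped relatives odd (-4.20 ± 0.71) and sob (-4.25 ± 0.53), the POU genes nub (-3.78 ± 0.35) and pdm2 (-4.04 ± 0.82), and the endodermal factor GATAe (-3.85 ± 0.62). The crop genes included the gap genes knrl (152 against 36.0 CPM, 2.08 ± 0.18) and hb (17.4 against 3.27 CPM, 2.42 ± 0.20) and the POU gene vvl (86.3 against 26.9 CPM, 1.68 ± 0.15). The forkhead factor fkh overlapped at 154 against 132 CPM.

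Few Hox genes were detected. Of 17 Hox and axial genes, 7 passed the filter, and the Hox cofactor hth (98.3 against 22.7 CPM, 2.12 ± 0.22) and the teashirt pair tsh (14.3 against 1.12 CPM, 3.68 ± 0.34) and tio (10.6 against 0.601 CPM, 4.17 ± 0.61) were called higher in the crop. Antp averaged 2.36 against 0.618 CPM and Ubx 0.638 against 0.193 CPM, each with overlapping groups. The cofactor exd was at 192 against 120.3 CPM and did not pass the limit on size.

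Signalling genes divided between pathways and also within them. Of 48 tested, 16 were called higher in the crop and 7 in PV, against 12.9 and 13.9% of all genes. Hedgehog (hh) stood at 58.2, 46.8 and 47.8 CPM in the crop libraries and 1.87, 1.42, 1.51, 3.50 and 1.53 CPM in the PV libraries. The crop was higher in every library, by 4.70 (standard error 0.30, edgeR adjusted p = 3.4e-06), and the Hedgehog effector ci (1.87 ± 0.16) and shf shared that direction. The receptor gene ptc overlapped at 22.9 against 29.3 CPM, and the transducer smo did not pass the limit at 0.91 ± 0.09. In the FGF pathway, the receptor gene htl (276 against 55.4 CPM, 2.32 ± 0.12) and its ligands pyr (312 against 71.7 CPM, 2.12 ± 0.15) and ths (5.81 against 2.60 CPM, 1.16 ± 0.25) were all higher in the crop, although ths fell to 0.90 without crop replicate 3. The tracheal FGF receptor gene btl was higher there too (2.98 ± 0.14), while its ligand bnl overlapped.

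In the BMP pathway the ligand and the receptor went opposite ways. The ligand dpp averaged 162 CPM in the crop against 21.9 CPM in PV (2.89 ± 0.14) and gbb differed by 1.30 ± 0.07, while the receptor gene tkv averaged 28.9 CPM in the crop against 151 CPM in PV (-2.39 ± 0.20). Wingless genes were on the PV side. The ligand wg stood at 3.21, 5.54 and 1.79 CPM in the crop libraries and 42.8, 44.9, 51.0, 39.1 and 56.3 CPM in the PV libraries. Crop replicate 2 was the highest of the crop libraries and below every PV library (-3.74 (standard error 0.37, edgeR adjusted p = 5.92e-05)). Wnt4 (-4.25 ± 0.71), Wnt6 (-2.42 ± 0.19), the receptor gene fz3 (-2.46 ± 0.21) and the secreted inhibitor gene Notum (-2.69 ± 0.35) went the same way, and Wnt5 (2.51 against 0.764 CPM, 1.72 ± 0.26) was higher in the crop. The Notch ligand Ser was higher in PV (5.15 against 67.9 CPM, -3.73 ± 0.66), and Notch itself (N) overlapped. For EGF signalling, the receptor gene Egfr (1.05 ± 0.09, and 0.98 without PV replicate 2) and the ligand genes vn (2.07 ± 0.15) and grk (1.39 ± 0.14) were called higher in the crop.

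Receptors for peptides and amines differed in both directions. Of 51 tested, 16 were called higher in the crop and 11 in PV, against 12.9 and 13.9% of all genes, and the median was 0.02 (0.47 without PV replicate 4). After MsR1 came the second myosuppressin receptor gene MsR2, at 52.7, 51.1 and 53.8 CPM in the crop libraries and 3.63, 3.61, 2.80, 3.71 and 4.05 CPM in the PV libraries. Its libraries did not overlap (3.89 (standard error 0.12, edgeR adjusted p = 3.78e-08)). The receptor for pigment-dispersing factor, Pdfr, averaged 72.7 CPM in the crop against 4.24 CPM in PV (4.10 ± 0.12), and the trissin receptor TrissinR 35.5 against 1.96 CPM (4.16 ± 0.24). Among amine receptors, TyrRII (27.5 against 1.21 CPM, 4.49 ± 0.25), Octbeta2R (35.2 against 5.45 CPM, 2.70 ± 0.19) and 5-HT7 (16.5 against 3.17 CPM, 2.39 ± 0.28) were higher in the crop. The proctolin receptor Proc-R was higher by 1.08 ± 0.16.

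Other receptors were higher in PV. Dh44-R2, a diuretic hormone receptor, stood at 80.0, 106 and 66.1 CPM in the crop libraries and 344, 313, 318, 335 and 421 CPM in the PV libraries, a difference of -2.04 (standard error 0.17, edgeR adjusted p = 8.62e-06). The serotonin receptor gene 5-HT2A (3.34 against 38.8 CPM, -3.55 ± 0.69) and the tyramine receptor gene TyrR (2.20 against 27.7 CPM, -3.68 ± 0.52) had larger differences at lower levels. The short neuropeptide F receptor gene sNPF-R averaged 2.21 against 7.56 CPM (-1.77 ± 0.26), and its ligand sNPF was also higher in PV (-4.23 ± 0.83). Of 20 peptide and processing genes, 3 were called higher in the crop and 7 in PV, against 12.9 and 13.9% of all genes. Tk (0.782 against 12.1 CPM, -3.99 ± 0.90) and ITP (2.72 against 7.13 CPM, -1.39 ± 0.21) were called higher in PV. The insulin-like gene Ilp3 (2.69 against 0.646 CPM, 2.04 ± 0.45) was called higher in the crop, and Akh overlapped at 6.76 against 11.4 CPM. The myosuppressin gene itself did not pass the filter on low counts.

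**Figure D5:**
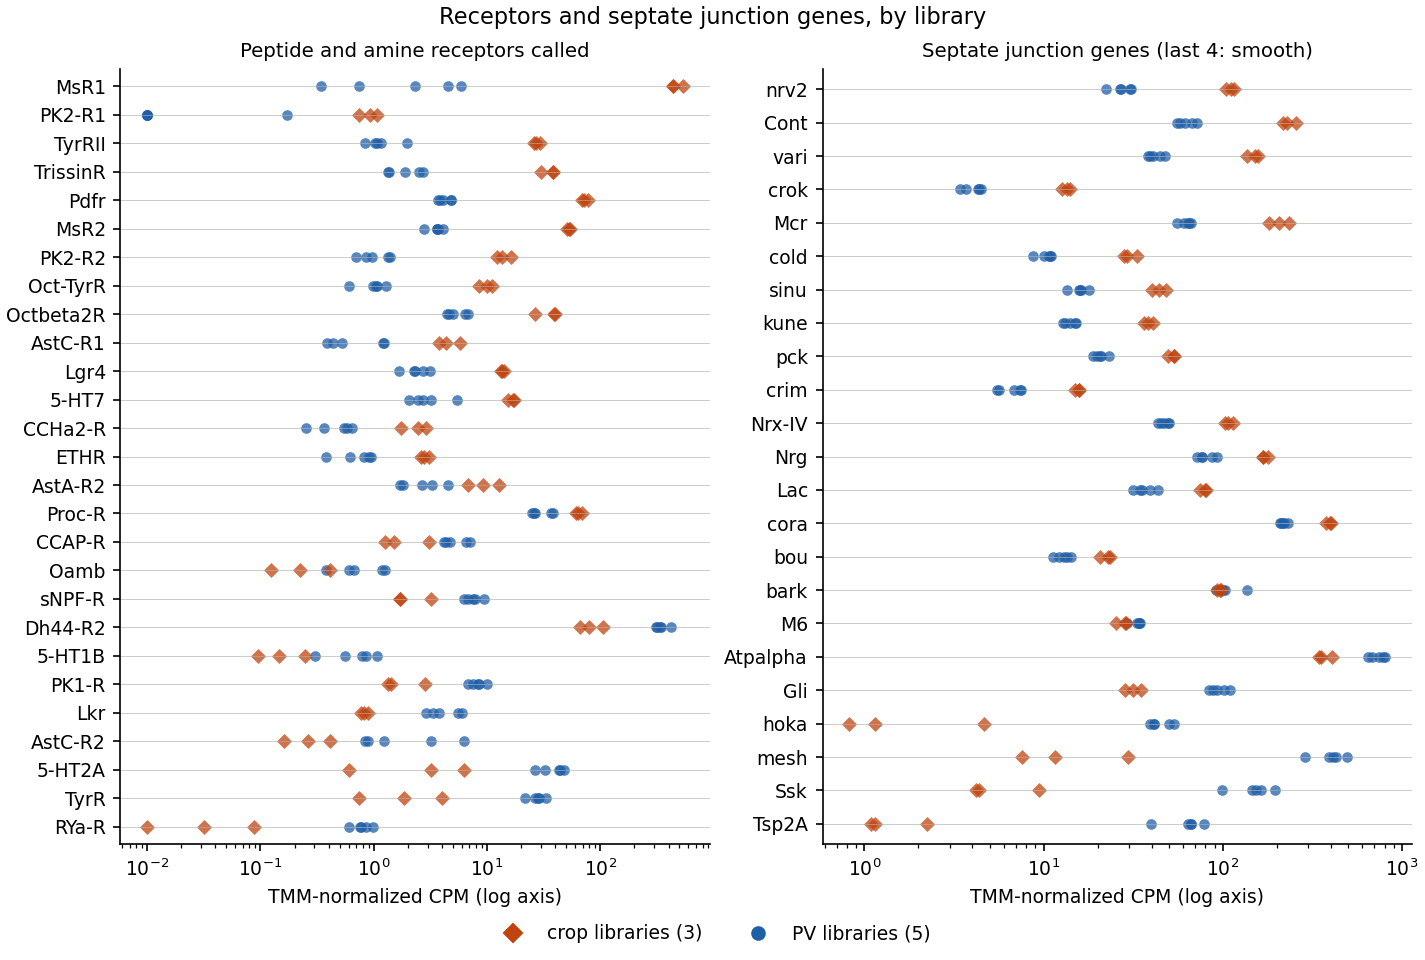
CPM in each library (log axis, values of 0 and below 0.01 drawn at 0.01) for the 27 called peptide and amine receptor genes and for 19 pleated and 4 smooth septate junction genes. Points are libraries, coloured by tissue, and MsR1 and Dh44-R2 are separated between the tissues in every library.

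Channels of nerve and muscle differed in both directions. Of 26 neurotransmitter-gated channel genes, 7 were called higher in the crop and 3 in PV, against 12.9 and 13.9% of all genes. Their median of -0.50 turned to 0.10 without PV replicate 4. The glutamate receptor subunits of the fly neuromuscular junction GluRIIE (84.0 against 18.9 CPM, 2.15 ± 0.09), GluRIIC (37.3 against 9.43 CPM, 1.98 ± 0.08) and GluRIID (33.2 against 7.55 CPM, 2.14 ± 0.13) were called higher in the crop, GluRIIA was not (0.52 ± 0.13), and the kainate-type subunit clumsy (24.5 against 4.84 CPM, 2.34 ± 0.15) was. The nicotinic subunit nAChRalpha4 (0.870 against 9.47 CPM, -3.47 ± 0.50) was higher in PV. Of 38 other channel genes, 12 were called for the crop and 5 for the PV, against 12.9 and 13.9% of all genes. Their median was -0.02. The mechanosensitive channel gene Piezo averaged 198 CPM in the crop against 61.6 CPM in PV (1.68 ± 0.07), the potassium channel genes Shaw and Shal differed by 2.37 ± 0.08 and 3.16 ± 0.10, and the pacemaker channel gene Ih by 1.81 ± 0.16. The TRP channel genes pain (2.36 ± 0.11) and Trpgamma (3.89 ± 0.13) were also higher in the crop, and TrpA1 (0.178 against 1.59 CPM, -3.17 ± 0.80) and the potassium channel gene Ork1 (1.29 against 4.84 CPM, -1.90 ± 0.27) in PV.

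Neuronal genes were called in both directions, but most were lower in the crop. Of 23 tested, 3 were called higher in the crop and 6 in PV, against 12.9 and 13.9% of all genes. The difference was negative in 17, and the median of -0.81 stayed negative in every alternative (-0.97 to -0.59). Synaptic genes at a few CPM such as nSyb (1.70 against 2.96 CPM) and Syt1 (2.63 against 4.58 CPM) overlapped. The dopamine synthesis genes ple (62.4 against 656 CPM, -3.39 ± 0.52) and Ddc (29.7 against 203 CPM, -2.77 ± 0.20) were higher in PV, but both also act in cuticle hardening and are not restricted to neurons. Syn (6.26 against 27.4 CPM, -2.13 ± 0.24) and futsch (10.8 against 28.5 CPM, -1.40 ± 0.36) were higher in PV as well, and Vmat (71.4 against 8.09 CPM, 3.14 ± 0.18), Rbp9 (2.15 ± 0.07) and unc-13 (1.73 ± 0.19) in the crop. Of 9 glial genes, nrv2 and loco (1.03 ± 0.08, and 0.96 without crop replicate 3) were called higher in the crop, and the glial identity gene repo overlapped at 1.58 against 2.53 CPM. Chemosensory genes were mostly silent, since 34 of 280 passed the filter, 12 of them called for the crop and 8 for the PV. The CD36 relative Snmp2 (493 against 56.8 CPM, 3.12 ± 0.09), Phk-3 (247 against 38.5 CPM, 2.68 ± 0.22) and Obp57b (24.9 against 2.16 CPM, 3.54 ± 0.22) were higher in the crop, and the ionotropic receptor gene Ir68a (0.442 against 11.8 CPM, -4.73 ± 0.84) in PV.

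On the TMM scale V-ATPase and aquaporin genes were mostly higher in PV, and ion carriers were mixed. Of 23 V-ATPase subunit genes, 15 were called higher in PV, such as Vha16-1 (1013 against 2658 CPM, -1.39 ± 0.13), Vha68-2 (-1.56 ± 0.15) and Vha55 (-1.62 ± 0.11). The alternative subunits Vha68-1 (51.6 against 17.4 CPM, 1.57 ± 0.08) and Vha36-3 (2.40 against 0.204 CPM, 3.55 ± 0.56) were higher in the crop. On the coding TPM scale the median of the V-ATPase genes was -0.18, against a median gene at 0.998. These genes held 0.427% of coding TPM in the crop and 0.513% in PV, with overlapping libraries. The water channel gene Drip stood at 8.60, 27.3 and 5.28 CPM in the crop libraries and 326, 306, 325, 214 and 244 CPM in the PV libraries. It was higher in every PV library (-4.37 (standard error 0.62, edgeR adjusted p = 0.000852)), and all 5 tested aquaporin genes were PV-called, among them Prip (-3.35 ± 0.38) and Eglp4 (-2.70 ± 0.36). The sodium pump alpha subunit Atpalpha did not pass the limit on size (369 against 734 CPM, -0.99 ± 0.10). Of 26 pump and ion carrier genes, 3 were called higher in the crop and 5 in PV, against 12.9 and 13.9% of all genes, and the median of -0.20 turned to 0.08 without PV replicate 4. The potassium channel gene Irk2 (428 against 116 CPM, 1.88 ± 0.17), the exchanger gene Nha2 (16.2 against 5.79 CPM, 1.48 ± 0.15) and nrv2 were the crop genes. Among ion carriers Ncc69 (138 against 622 CPM, -2.17 ± 0.18) and Nha1 (3.21 against 39.3 CPM, -3.63 ± 0.80), and among carbonic anhydrases CAH1 (-1.69 ± 0.18) and CAH2 (-3.19 ± 0.21), were higher in PV.

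Nutrient and metal carriers were more often PV genes. The PV was called for 6 of 13 sugar transporter, 7 of 17 amino acid transporter and 8 of 20 metal handling genes, and the crop for 2 of each (4 metal genes without PV replicate 4). Over all genes the shares called were 13.9% for the PV and 12.9% for the crop. The sugar transporter gene sut2 averaged 15.7 CPM in the crop against 395 CPM in PV (-4.65 ± 0.60), and the amino acid transporter gene path 94.8 CPM in the crop against 1236 CPM in PV (-3.70 ± 0.39). JhI-21 (-2.56 ± 0.19), ine (-3.30 ± 0.40) and CG7255 (-3.99 ± 0.40) were also higher in PV. Toward the crop stood the sugar transporter gene CG1208 (63.4 against 3.24 CPM, 4.30 ± 0.50) and the amino acid transporter gene sbm (88.1 against 16.1 CPM, 2.45 ± 0.24). The metallothionein gene MtnA averaged 31.4 CPM in the crop against 498 CPM in PV (-3.99 ± 0.60). Ferritin subunits differed less, with Fer1HCH at -1.29 ± 0.17 and Fer2LCH at -1.06 ± 0.15. The transferrin genes Tsf2 (1.55 ± 0.11) and Tsf3 (2.53 ± 0.15) were higher in the crop.

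Of 24 genes of fatty acid synthesis and elongation, 8 were called higher in the crop and 3 in PV, against 12.9 and 13.9% of all genes. The crop count was 5 without PV replicate 4. The elongase gene bond stood at 2112, 1579.9 and 1659.7 CPM in the crop libraries and 306, 225, 289, 227 and 369 CPM in the PV libraries. The groups were well separated (2.66 (standard error 0.18, edgeR adjusted p = 2.08e-06)), and the elongases Elovl7 (2.74 ± 0.16) and Baldspot (1.56 ± 0.15) followed CG5065. The carboxylase ACC (1.01 ± 0.14) and the desaturase Desat1 (1.08 ± 0.13) lay at the 2-fold limit, and FASN1 did not reach it (0.91 ± 0.14). The PV genes were the transporter gene Fatp2 (16.6 against 94.2 CPM, -2.50 ± 0.25), FASN2 (1.28 against 3.61 CPM, -1.498 ± 0.33) and the elongase gene Elo68alpha (1.78 against 13.7 CPM, -2.95 ± 0.88), whose edgeR adjusted p was 0.0593 without crop replicate 1 and 0.0565 without crop replicate 2. Desat1 was under the limit without PV replicate 4 (0.99), and ACC, at 0.92 to 1.00, without crop replicates 1 or 3 or PV replicates 1, 2 or 4. Of 21 storage genes, 2 were called for the crop and 1 for the PV, against 12.9 and 13.9% of all genes. Without PV replicate 4 the crop had 4. The crop genes were Mtpalpha (1.07 ± 0.08) and Mtpbeta (1.03 ± 0.07, and 0.99 without crop replicate 1 or PV replicate 2). The PV gene was Agpat3 (-1.25 ± 0.12). The fatty acid binding protein gene fabp was higher in the crop (533 against 147 CPM, 1.85 ± 0.18) and the lipocalin gene NLaz in PV (47.7 against 168 CPM, -1.82 ± 0.23), while the lipoprotein gene apolpp overlapped.

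The takeout family, carriers of small hydrophobic ligands, was divided. Jhbp7 (109.5 against 5.29 CPM, 4.37 ± 0.18), Jhbp12 (263 against 48.1 CPM, 2.45 ± 0.16) and Jhbp14 (524 against 219 CPM, 1.26 ± 0.22) were higher in the crop. The gene takeout itself (to) stood at 511, 548 and 301 CPM in the crop libraries and 2108, 1588, 1871, 1699 and 2298 CPM in the PV libraries, higher in every PV library (-2.08 (standard error 0.22, edgeR adjusted p = 4.67e-05)), and Jhbp1 (104 against 954 CPM, -3.20 ± 0.39) went with it. The juvenile hormone synthesis gene jhamt averaged 2.80 CPM in the crop against 34.5 CPM in PV (-3.63 ± 0.46), and Cyp6g2 differed by -3.90 ± 0.67. The epoxide hydrolase gene Jheh3 was higher in PV (-3.21 ± 0.50). The hormone receptor genes Met (33.8 against 28.1 CPM) and gce (145 against 103 CPM) were expressed in both tissues and not called.

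Detoxification families contained strong genes on both sides. Of 69 cytochrome P450 genes, 20 were called higher in the crop and 15 in PV, against 12.9 and 13.9% of all genes. Cyp6d5 stood at 1180.5, 1299.5 and 1287 CPM in the crop libraries and 138, 154, 136, 238 and 85.5 CPM in the PV libraries, a difference of 3.06 (standard error 0.28, edgeR adjusted p = 3.76e-05). Cyp9b2 (622 against 139 CPM, 2.16 ± 0.12), Cyp9f2 (471 against 182 CPM, 1.37 ± 0.17) and Cyp6a8 (221 against 12.2 CPM, 4.17 ± 0.28) were crop-called. Cyp28d1 (25.3 against 447 CPM, -4.15 ± 0.50) and Cyp4p1 (15.6 against 131 CPM, -3.08 ± 0.58) led in PV. Of 28 glutathione S-transferase genes, 6 were called higher in the crop and 6 in PV, against 12.9 and 13.9% of all genes. Of 26 UDP-glycosyltransferase genes, 2 were called higher in the crop and 8 in PV, with a median of -1.19 (-0.52 without PV replicate 4). Among these enzymes GstE12 (1.08 ± 0.07), GstT3 (1.49 ± 0.13) and Ugt49C1 (2.90 ± 0.20) were higher in the crop and GstO3 (-1.15 ± 0.12), Ugt36A1 (7.91 against 24.8 CPM, -1.65 ± 0.12), Ugt317A1 (-1.46 ± 0.24) and Ugt50B3 (1.95 against 18.9 CPM, -3.30 ± 0.54) in PV. The esterase gene alpha-Est7 was higher in the crop (851 against 145 CPM, 2.55 ± 0.23) and the sorbitol dehydrogenase gene Sodh1 in PV (3.34 against 53.0 CPM, -3.998 ± 0.41).

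Redox genes held a few large differences around a median of -0.00380. Of 18 tested, 2 were called higher in the crop and 4 in PV, against 12.9 and 13.9% of all genes. The NADPH oxidase gene Nox stood at 2.94, 17.0 and 1.28 CPM in the crop libraries and 180.2, 176, 167, 142 and 177 CPM in the PV libraries. It was low in all crop libraries (-4.59 (standard error 0.90, edgeR adjusted p = 0.00474)). The dual oxidase gene Duox averaged 12.0 CPM in the crop against 3.00 CPM in PV (2.01 ± 0.27) and the immune-regulated catalase gene Irc 173 CPM in the crop against 25.98 CPM in PV (2.74 ± 0.12). The glutathione synthesis genes Gclc (-1.82 ± 0.20) and Gss1 (-1.53 ± 0.10) and the catalase gene Cat (-1.02 ± 0.13, and -0.91 and -0.96 without crop or PV replicate 1) were higher in PV. The superoxide dismutase genes Sod1 (375 against 265 CPM) and Sod2 (48.1 against 50.7 CPM) were not called.

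Immune effectors were divided by family. Of 49 tested, 10 were called higher in the crop and 15 in PV, against 12.9 and 13.9% of all genes. Peptides of the IMD pathway were PV genes. AttD averaged 0.128 CPM in the crop against 42.2 CPM in PV (-8.37 ± 1.47), AttA 0.114 against 34.4 CPM (-8.21 ± 1.42) and the drosocin gene Dro 0.0427 against 10.1 CPM (-7.70 ± 1.59), and the cecropin gene CecA1 differed by -8.28 ± 1.49. Over the 3 crop libraries these levels rest on 11 reads for AttD, 10 for AttA, 8 for CecA1 and 4 for Dro. The PV libraries varied widely in them, as AttD shows with 81.6, 79.7, 20.4, 23.7 and 5.83 CPM. Bomanin genes, targets of the Toll pathway, were on the crop side, with BomS1 at 11.01, 58.6 and 15.5 CPM in the crop libraries and 2.34, 2.25, 0.555, 0.216 and 0.123 CPM in the PV libraries. The difference for BomS1 was 4.62 (standard error 0.99, edgeR adjusted p = 0.00702). BomS3 was higher by 3.28 ± 0.63, while BomS2, BomS5, BomS6 and BomT2 were called with overlapping groups and lost their calls without crop replicate 2 (edgeR adjusted p = 0.167, 0.145, 0.186 and 0.0841) and without several other single libraries. The Toll-side peptide gene Drs was near 0 in both tissues (0.413 against 0.884 CPM).

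Receptors of the 2 pathways went with neither side as a block. PGRP-LC, the IMD receptor, was higher in the crop (85.9 against 40.4 CPM, 1.09 ± 0.10), as was PGRP-SA, a sensor of the Toll pathway (7.24 against 1.53 CPM, 2.22 ± 0.33). PGRP-SB1 was higher in PV (0.235 against 15.01 CPM, -6.02 ± 1.12). The intracellular receptor PGRP-LE, the amidase PGRP-LB and the inhibitor pirk were not called, at 15.8 against 19.9 CPM, 77.7 against 49.5 CPM and 22.3 against 18.8 CPM. The serpin gene Spn27A (689 against 91.2 CPM, 2.92 ± 0.10), chosen after its values were seen, was higher in the crop. When axenic PV libraries replaced those with LpWF, DptA, DptB, AttA, AttD and PGRP-SD were still called higher in PV than in the crop with LpWF (edgeR adjusted p = 0.0210 to 0.0341), with DptA at -9.45. Crops without LpWF were not analysed here.

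Ribosomal protein, proteasome, nuclear respiratory chain and clock genes mostly differed by less than 2-fold. None of 81 cytosolic ribosomal protein genes was called by edgeR or DESeq2, although in edgeR 63 were lower and 1 higher in the crop at an unadjusted p under 0.05 and 57 were lower at an adjusted p under 0.05, with a median of -0.34. On the coding TPM scale that median was 0.64, so its direction depends on the scale. None of 32 proteasome genes was called by either tool (median -0.05, 11 at an unadjusted edgeR p under 0.05), nor any of 9 clock genes (5 at that p), with per at -0.90 ± 0.19 and vri at 0.76 ± 0.15 the farthest apart. Of 72 nuclear respiratory chain genes 1 was called on each side, COX7AL2 (4.11 against 0.728 CPM, 2.47 ± 0.35) for the crop and ND-B18 (26.9 against 98.01 CPM, -1.86 ± 0.11) for the PV, around a median of -0.01. In glycolysis Gpo1 (-1.26 ± 0.10) and Ldh (-1.46 ± 0.50) were called for the PV, but Ldh lost the call without any of the crop libraries or without PV replicates 1 or 3 (edgeR adjusted p = 0.0697 to 0.132). Glycogen phosphorylase (Glyp) was higher in the crop (418 against 141 CPM, 1.56 ± 0.06) and trehalase (Treh) in PV (134 against 286 CPM, -1.09 ± 0.14). Of the heat shock genes Hsp23 (-2.03 ± 0.40) and Hsp22 (-1.81 ± 0.29) were higher in PV, and the groups overlapped for the Hsp70 copies, between which reads can be split.

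Markers of other cell types were checked because they bear on several groups above. Hemocyte markers summed to 1238 to 1296 CPM in the crop and 210 to 287 CPM in PV, of which Pxn made up 828 to 882 CPM in the crop and 18.4 to 33.0 CPM in PV. The scavenger receptor gene crq (339.9 against 139.7 CPM, 1.28 ± 0.10) was also higher in the crop, and the defining genes Hml (57.9 against 43.2 CPM) and eater (1.93 against 1.87 CPM) overlapped. Tracheal markers summed to 796 to 911 CPM in the crop and 103 to 165 CPM in PV. The tracheal regulator trh averaged 1.27 against 0.609 CPM and was not called. Nephrocyte markers summed to 89.4 to 131 CPM and 316 to 514 CPM, with the endocytic receptor gene Cubn (32.9 against 188 CPM, -2.51 ± 0.31) and the slit diaphragm gene sns (2.28 against 9.53 CPM, -2.05 ± 0.30) higher in PV. Corpus allatum and corpora cardiaca markers summed to 85.7 to 111 CPM and 192 to 265 CPM. Fat body markers summed to 1866 to 3160 CPM and 2181 to 4638 CPM. Salivary gland markers summed to 29.8 to 70.6 CPM and 406 to 488 CPM, and 3 of the 4 tested were called higher in PV. Of 20 ovary markers 19 were under 1 CPM in either tissue. Their part in the differences was not tested.

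Marker genes were set beside the tissue labels. They were chosen with earlier results of these data known, so they do not test the labels. The esophagus also runs through the PV, so its markers are not markers of the crop alone. Of 13 genes that mark the esophagus and crop duct, 10 were called higher in the crop and 0 in PV (0 in edgeR also at an unadjusted p under 0.05, and 0 in DESeq2). The virus-induced gene vir-1 averaged 2024 CPM in the crop against 575 CPM in PV (1.82 ± 0.15), and Nplp2 was called with overlapping groups, a call lost, at 0.77 to 0.97, without crop replicates 2 or 3 or PV replicates 2, 4 or 5. Of 11 genes that mark PV cells, 9 were called higher in PV, with CG43673 at 255 CPM in the crop against 4402 CPM in PV (-4.11 ± 0.76) and CG8560 at 4.24 CPM in the crop against 135 CPM in PV (-5.02 ± 1.15). CG4267, whose reporter labelled PV cells in the authors' study, was higher in the crop (139 against 40.0 CPM, 1.79 ± 0.12). CG15120 was low in both.

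Most called genes belonged to none of the lists, 947 on the crop side and 973 on the PV side, and the following were chosen after their values were seen. Further muscle genes stood among the crop genes, including zormin (1.75 ± 0.11), the LIM protein gene Lmpt (2.76 ± 0.10), the filamin relative jbug (2.10 ± 0.13), tn (2.74 ± 0.07) and the splicing regulator mbl (2.27 ± 0.12). Arginine kinase (Argk1), which buffers ATP, averaged 2035 CPM in the crop against 717 CPM in PV (1.505 ± 0.11). The ABC transporter genes snu (1239.5 against 456 CPM, 1.44 ± 0.12) and osy (1498 against 560.3 CPM, 1.42 ± 0.15), which act in the lipid barrier of cuticle, were higher in the crop. The gene fau averaged 1008 CPM in the crop against 102 CPM in PV (3.31 ± 0.10). In PV, Arc1, whose product forms capsids that carry RNA, averaged 1722 CPM in the crop against 7781 CPM in PV (-2.18 ± 0.36), and the secreted protein gene Ag5r 135 CPM in the crop against 4840.3 CPM in PV (-5.16 ± 0.76). The multicopper oxidase genes Mco1 (93.2 against 2136 CPM, -4.52 ± 0.84) and Mco4 (55.7 against 1767 CPM, -4.99 ± 0.82) and the chloride channel gene SecCl (37.7 against 829 CPM, -4.46 ± 0.66) were higher in PV.

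Genes known only by a CG number made up 34.2% of the tested genes, 36.8% of the crop calls and 38.7% of the PV calls. Calls were spread over the chromosome arms at 11.4 to 13.5% for the crop and 12.5 to 15.5% for the PV, apart from the small chromosome 4. There 18 of 75 tested genes were called higher in the crop and 4 in PV. The crop genes on it include bt, ci and unc-13, and no test of this difference was made.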

How the data were processed

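RNA of adult foregut parts was sequenced from ribosomal RNA-depleted, stranded total RNA libraries with 75-base single-end reads. The authors ran a Nextflow workflow ending in Salmon against Ensembl release 98 (BDGP6) and deposited, per transcript, estimated counts that are not normalized between libraries. The authors also deposited TPM over all transcripts, noncoding RNA included. The Salmon version is not given in the sources used here.

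Transcripts were assigned to genes with Ensembl release 115 (BDGP6), whose coordinates are printed. Of 33704 transcripts, 271 had no gene there and were left out (0.140 to 0.257% of reads in the 8 libraries compared), and the rest gave 17039 genes, 13619 of them protein-coding. Estimated counts were summed per gene and rounded, filtered with filterByExpr, scaled by TMM and tested with edgeR 4.0.16 (robust quasi-likelihood test, R 4.3.3) in the 8 libraries alone, with Benjamini-Hochberg adjustment over all tested genes, coding or not. A call needed an adjusted p under 0.05 and a difference beyond 2-fold. Figures were drawn with matplotlib 3.10.9, and tables were built with numpy 2.4.6 and pandas 2.3.3 under Python 3.11.15. Shares of coding TPM were compared by exact permutation (scipy 1.17.1) over 56 splits. Replicates of a group differed by at least 108 times the counting variance, so none was merged. In simulated counts for 9597 genes, 196 tested genes were changed. An adjusted p under 0.05, with no limit on size, marked 79.6% of them and 11 unchanged genes. It marked 90.2% of the 133 whose simulated log2 change was at least 2. In the data far more coding genes passed that p, 26.6% toward the crop and 25.4% toward the PV. The simulation therefore does not show how normalization and test behave with that many differences.

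Alternatives were DESeq2 size factors, upper-quartile factors, DESeq2 1.42.0, glmTreat, filters at 1 count in any or 10 counts in every library, nuclear coding genes only, all 10 PV libraries, axenic PV libraries, no PV replicates 4 and 5, a replicate block, and leaving out each library. Shares were recomputed on CPM and after a filter at 1 TPM. Text names the 15 called genes with the largest difference in each direction among those at 50 CPM or more in the higher group without overlap, the 12 highest by coding TPM in each tissue, up to 4 called genes per list and direction by mean CPM, and genes that fill a pathway's roles. Other genes named were chosen after their values were seen. The members and lists were chosen with earlier results of these data known. The other libraries of the series, axenic PV apart, were not used here.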

Additional observations from a re-analysis of the deposited data

Results flagged for a closer look

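In the 5 PV libraries, 432 values (368 named genes and 64 list totals) were examined for a single library whose distance to the nearest of the others took up an unusually large part of the range. This was so for 22 (5.09%), and chance alone marks about 1 group in 20. PV replicate 5 was the distant library in 9 of them, replicate 4 in 8, replicate 3 in 3 and replicate 2 in 2.

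Replicate 5 was low in totals, with nuclear respiratory chain genes at 1.206% of coding TPM (the others 1.378 to 1.409%) and cytochrome P450 genes at 0.1388% (0.1918 to 0.2076%). It was also low for p130CAS at 57.18 CPM (77.98 to 82.68). It was high for abundant secreted products and for genes of chitin supply, with CG14645 at 70600 CPM (38770 to 47670), CG3906 at 19610 CPM (12660 to 14020), CG4783 at 2390 CPM (1586 to 1757) and Gnpnat at 283.8 CPM (187.3 to 192.7). Wnt4 at 26.5 CPM (18.03 to 18.79) and Dh44-R2 at 421.3 CPM (312.9 to 344) were high there too.

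Replicate 4 was high for the PV gene CG8560 at 363.1 CPM (59.51 to 102.2) and for genes that were low in PV otherwise. Antp stood at 2.116 CPM (0.06135 to 0.4753), Ubx at 0.8205 CPM (0 to 0.08338), hh at 3.498 CPM (1.417 to 1.867) and CG1208 at 7.471 CPM (1.841 to 2.918). The FGF ligand gene bnl at 8.896 CPM (4.388 to 5.086) and the synaptic gene Syt1 at 9.803 CPM (2.043 to 4.085) shared this, while mmy was low at 295.2 CPM (331.5 to 345.2). The calls of hh, CG1208, CG8560 and mmy held without replicate 4, and Antp, whose groups overlapped, was then called higher in the crop.

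Replicate 3 was high for BomS6 at 4.666 CPM (1.598 to 2.001) and CG15120 at 2.573 CPM (1.556 to 1.779) and low for ine at 50.14 CPM (66.26 to 69.16). Replicate 2 was high for Cyp6a8 at 19.98 CPM (8.68 to 11.72) and Gpo1 at 153.4 CPM (114.5 to 125.3).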

How the results depend on the processing

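Calls numbered 883 to 1283 for the crop and 897 to 1484 for the PV under all alternatives (1140 to 1207 and 1174 to 1303 when single libraries were left out), against 1186 and 1283, and 0 genes were called in the opposite direction in any. The largest falls came with glmTreat (883 and 897), which tests for more than 2-fold. The crop took 45.3 to 51.1% of the calls (48.0% in the main comparison). With axenic PV libraries 86.8 and 88.6% of the calls were shared. Of 314 called genes named in the text, 265 kept the call in every alternative, and 17 lost it without a single library, each with its value in the report.

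Medians of 12 lists changed sign in at least 1 alternative. In 5 the main median was within 0.1 of 0, namely peptide and amine receptors (0.022, range -0.12 to 0.75), ion channels (-0.016, up to 0.22), nuclear respiratory genes (-0.0059, up to 0.073), proteasome (-0.054, up to 0.023) and redox enzymes (-0.0038, up to 0.30). The other 7 follow. The filter at 10 counts gave -0.0937 for basement membrane (0.24 in the main comparison), 1.51 for neurotransmitter-gated channels (-0.50), 0.63 for antimicrobial peptides and PGRPs (-1.18) and -0.0035 for cell cycle genes (0.58), since it drops genes that are low in 1 tissue. Without PV replicates 4 and 5 the channels stood at 0.18 and ion carriers at 0.012 (-0.20). Leaving out single libraries gave -0.74 to 0.099 for the channels and -0.30 to 0.083 for ion carriers, both highest without PV replicate 4. It gave -0.0455 without crop replicate 3 to 0.70 without crop replicate 2 for mitochondrially encoded respiratory genes (0.36), and -0.30 to 0.011 for lipid carriers (-0.16). On the coding TPM scale 15 of 63 list medians changed sign. Crop minus PV shares of CPM were 0.846 points for mitochondrially encoded genes and 0.513 for ribosomal protein genes, neither of which passed the exact permutation test (p = 0.0536 and 0.125). The digestive enzyme share of coding TPM ranged from -5.52 without PV replicate 5 to -3.75 without PV replicate 4. Apart from the filter, the cause was not tested.

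Replicate numbers did not pair the libraries, since same-numbered crop and PV libraries correlated at 0.026, -0.059 and -0.10 in their deviations. A replicate block over replicates 1 to 3 gave 1184 and 1154 calls, against 1236 and 1296 in those 6 libraries without it, and medians of 0.36 for the channels and -0.15 for mitochondrially encoded respiratory genes.

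With 3 crop libraries the precision is limited, and genes under a few CPM rest on few reads.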
